A study of Mus musculus with 198 samples.

Results

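Wild-type cortical neurons kept in culture were profiled by whole-genome bisulfite sequencing after 4, 7, 10 and 12 days in vitro, with 2 libraries a day, labelled A and B. These 8 cultures were taken from the labels as the neurons with a wild-type genotype and no virus or construct named, out of 198 samples and 98 culture samples in the series. Their cells were C57BL/6J cortical neurons of embryonic day 14.5, pooled from male and female embryos. They were set beside the cortex of 13 wild-type (WT) C57BL/6J mice of both sexes that carried no other labelled allele, 5 at 0 weeks, 3 at 1 week and 5 at 2 weeks of age. A further set, 10 cultures labelled as no virus controls, came from the same strain and embryonic day and was labelled day 12.5. The genotype label of these 10 reads no virus control and does not name wild type. The age label of the last cultures reads day 12, whereas their titles read 12-5. Day 12 is used here, and day 12.5 was run as an alternative.

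All these libraries were sequenced to a labelled coverage of only 0.01 to 0.03 genome equivalents, and each is represented by 1 genome-wide value per sequence context. The number of cytosines behind a value is unknown, so no counting interval can be given. The labels do not say whether libraries A and B of a day came from separate cultures. The p-values therefore measure the spread between libraries, which may be technical. Levels of methylation say nothing of marker genes, so the neuron label was not checked against expression. Dissected cortex holds glia and other cells beside neurons, and a change in cell makeup and a change per cell cannot be told apart in either kind of sample.

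Cytosine methylation in most mammalian cells lies at CG sites, where a maintenance enzyme copies it at each cell division. Maturing neurons also gain methylation outside CG sites, written by the methyltransferase DNMT3A after the cells have stopped dividing. CA sites take up most of it, CT sites less and CC sites very little, so the CC level can stand for unconverted background. Phage lambda DNA, taken as unmethylated, gives a second reading of the cytosines that bisulfite failed to convert.

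At CA sites, the level was low on days 4 and 7 and higher on days 10 and 12. On day 4, library A had 0.593% and library B 0.506% of CA cytosines methylated, and on day 7 they had 0.589% and 0.567%. On day 10 they had 0.887% and 0.728%, and on day 12 they had 1.18% and 1.10%. Days 4 and 7 overlapped, whereas both libraries of day 10 lay above all 4 earlier ones and both libraries of day 12 above all 6. The mean of day 12 was 2.07-fold that of day 4. The slope was 0.0714 percentage points a day (SE 0.0143), with Pearson's r of 0.898 (exact two-sided permutation p = 0.00357, adjusted p = 0.00804) and Spearman's rho of 0.878 (exact permutation p = 0.0103). Adjusted values are by Benjamini-Hochberg over the 9 measures tested for a trend, and 5 of the 9 passed at 0.05.

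CC sites showed no such course. Their level was 0.401% and 0.359% on day 4, 0.381% and 0.353% on day 7, 0.441% and 0.341% on day 10, and 0.403% and 0.328% on day 12. All 4 days overlapped, and the slope of -0.000505 points a day was smaller than its SE of 0.00473 (r = -0.0435, exact permutation p = 0.918). The sign of that slope was not stable, since r was 0.132 with day 12 left out. With lambda subtracted, which leaves every CC value below 0, r was 0.730 (exact permutation p = 0.0349, adjusted p = 0.0524).

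CT sites lay between. Libraries A and B had 0.436% and 0.386% of CT cytosines methylated on day 4, 0.423% and 0.388% on day 7, 0.533% and 0.414% on day 10, and 0.579% and 0.497% on day 12. Both libraries of day 12 lay above those of days 4 and 7, and day 10 overlapped every other day. The deposited CT level did not pass the trend test after adjustment (slope 0.0161 points a day, SE 0.00612, r = 0.732, exact permutation p = 0.0480, adjusted p = 0.0663). In each of the 4 days library A was the higher one at CA, CT and CC, so a part of the spread within a day was common to the 3 contexts.

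**Figure D1:**
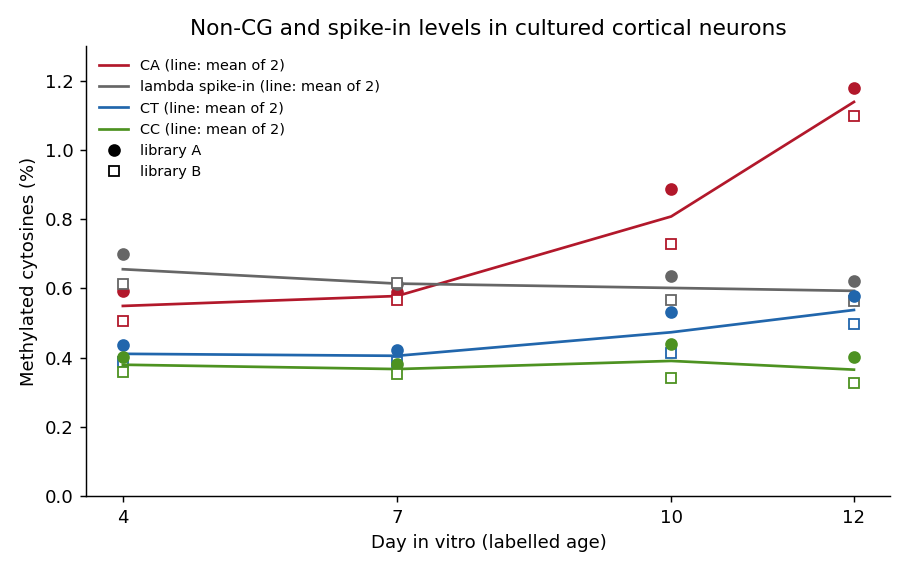
Percentage of cytosines called methylated at CA, CT and CC sites and in the lambda spike-in (vertical axis) by labelled day in vitro (horizontal axis), where filled circles are library A, open squares library B and lines join the means of 2. CA stands below lambda on day 4 and reaches 1.10% to 1.18% on day 12, while CC stays between 0.328% and 0.441%.

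The lambda spike-in was read at 0.698% and 0.612% on day 4, 0.613% and 0.615% on day 7, 0.635% and 0.568% on day 10, and 0.621% and 0.565% on day 12. Its slope, -0.00752 points a day (SE 0.00426), did not pass the test (r = -0.585, exact permutation p = 0.121, adjusted p = 0.136). Lambda exceeded CC in all 8 cultures, by 1.44-fold to 1.74-fold, so the spike-in reads more background than the CC sites of the same library do. The CA level was below lambda in 0 of 2 libraries on days 10 and 12 and in 2 of 2 libraries on days 4 and 7, and CA minus lambda averaged -0.106, -0.0359, 0.206 and 0.545 points over the 4 days in order. On days 4 and 7 the excess of CA over background could thus be read against CC and not against lambda.

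Taking off the CC level of the same library brought A and B closer together at CA. The CA level above CC was 0.192 and 0.147 percentage points on day 4, 0.208 and 0.214 on day 7, 0.447 and 0.387 on day 10, and 0.777 and 0.769 on day 12. No 2 days overlapped, and the pooled SD within a day was 0.0267 points, against 0.0710 for the CA level as deposited. The mean of day 12 was 4.55-fold that of day 4. The slope was 0.0719 points a day (SE 0.0133), with r of 0.910 (exact permutation p = 0.00278, adjusted p = 0.00804) and rho of 0.976 (exact permutation p = 0.000794).

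A straight line did not describe the course, because most of the gain came late. Day 7 exceeded day 4 by 0.0412 points (SE 0.0267), which is 0.0137 points a day. Day 10 exceeded day 7 by 0.206 points (SE 0.0267), or 0.0687 a day. Day 12 exceeded day 10 by 0.356 points (SE 0.0267), or 0.178 a day. The last interval gave 0.142 points a day (SE 0.0107) if its libraries were of day 12.5, still above the earlier ones. Of the whole difference between day 12 and day 4, 0.603 points, the first 3 days in the series held the smallest share. A pair of days with 2 libraries each allows 6 arrangements and no p below 0.333, so these steps are given with their SE from the pooled spread and no test.

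CT above CC followed the same course at a lower level. It was 0.0354 and 0.0275 points on day 4, 0.0418 and 0.0348 on day 7, 0.0926 and 0.0729 on day 10, and 0.176 and 0.169 on day 12. Days 4 and 7 overlapped, and both later days lay apart from them and from each other. Day 7 exceeded day 4 by 0.00684 points (SE 0.00833), day 10 exceeded day 7 by 0.0445 points, and day 12 exceeded day 10 by 0.0895 points. The mean of day 12 was 5.48-fold that of day 4, which was only 0.0315 points. For CT as deposited it was 1.31-fold, so the fold depends on the background taken off. The slope was 0.0166 points a day (SE 0.00347), with r of 0.890 (exact permutation p = 0.00317, adjusted p = 0.00804). CT thus passed the trend test above CC and missed it as deposited.

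Without day 4 the trends of CA, of CA above CC and of CT above CC still passed, with r of 0.952, 0.962 and 0.947 over the 6 libraries left. Leaving out day 7, 10 or 12 ended these calls after adjustment, again with 6 libraries left and fewer arrangements. At CA r was 0.829 to 0.936, for CA above CC 0.915 to 0.948 and for CT above CC 0.886 to 0.942. The adjusted p (exact permutation) for CA above CC was 0.05 without day 7, 0.05 without day 10 and 0.1 without day 12. For CA it was 0.05, 0.075 and 0.15 in that order, and for CT above CC 0.0667, 0.0667 and 0.133. Leaving out any single library ended none of these 3 calls.

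**Figure D2:**
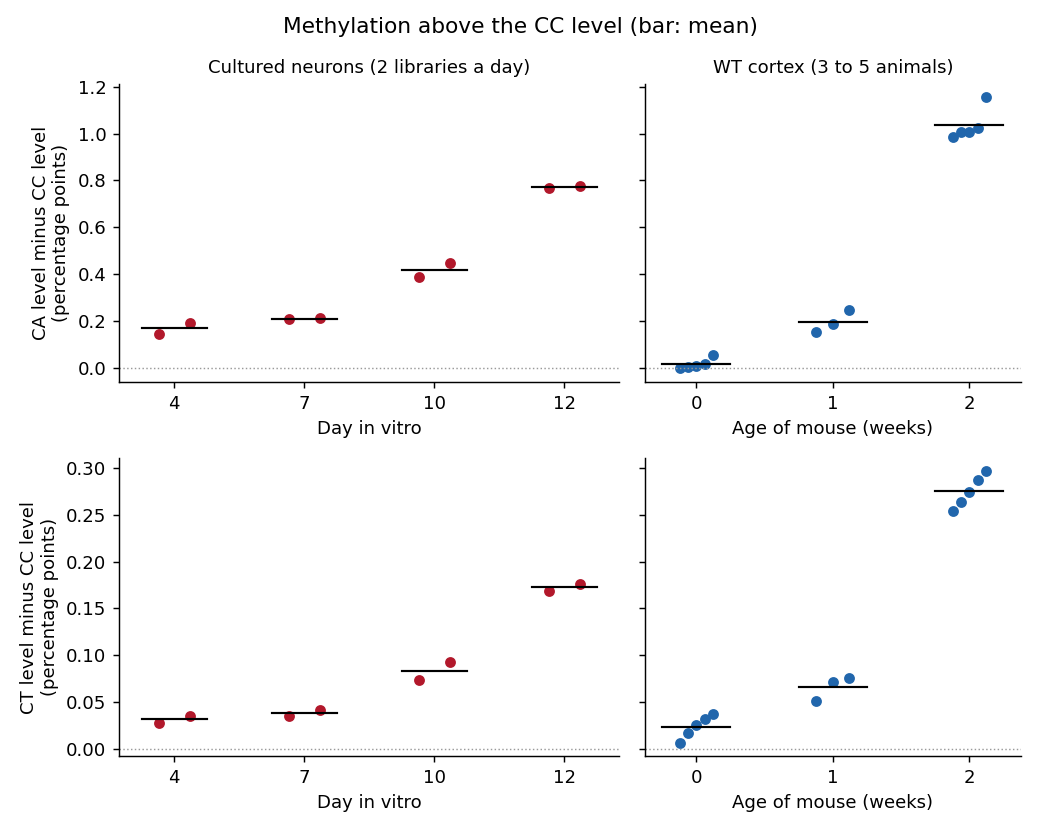
CA level (top) and CT level (bottom) minus the CC level of the same library, in percentage points, by day in vitro for the cultures (left) and by age in weeks for WT cortex (right), where each point is 1 library or animal and the bar is the mean. Day 12 cultures at 0.769 and 0.777 points of CA above CC lie above every 1-week cortex and below every 2-week cortex.

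The cortex of the growing mouse gave a scale for these levels. CA above CC averaged 0.0174 ± 0.0235 points at 0 weeks (SD, n = 5), 0.196 ± 0.0463 at 1 week (SD, n = 3) and 1.04 ± 0.0679 at 2 weeks (SD, n = 5). Cultures of days 4 and 7 reached 86.4% and 107% of the 1-week level, and all 4 of them lay below the highest 1-week animal, at 0.246 points. Day 10 cultures stood at 40.3% and day 12 cultures at 74.6% of the 2-week level. Against the 1-week level they stood at 212% and 393%. At CT the same days stood at 30.1% and 62.6% of the 2-week level, which was 0.275 ± 0.0171 points above CC (SD, n = 5). In cortex, too, the later interval held the larger gain in CA above CC, 0.120 points a day (SE 0.00578) between 1 and 2 weeks and 0.0256 (SE 0.00411) between 0 and 1 week. The rate between culture days 10 and 12 was numerically above both, and the rates were not tested against each other.

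Day 12 cultures had less CA methylation above CC than the cortex of 2-week mice and more than that of 1-week mice. Days in vitro count from the culture of embryonic day 14.5 cells, so day 12 and 2 weeks are not matched ages. The cultures had 0.777 and 0.769 points, against 0.987 to 1.15 points with a median of 1.01 in the 5 animals of 2 weeks. These groups did not overlap. The difference in means was -0.263 points (SE 0.0306, exact two-sided permutation p = 0.0476, adjusted over 3 measures p = 0.0476), the smallest p that 21 arrangements allow. Without the highest animal the difference was -0.233 points, and with any library or animal left out the design could no longer pass the threshold. The 8 cultures and the cortex differ in dissection, growth and possibly run, and the labels give no run or date, so source and batch cannot be told apart in this and the next comparisons.

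CG methylation was higher in every culture than in every cortex of 0 to 2 weeks. It was 78.9% and 76.8% on day 4, 77.9% and 78.0% on day 7, 79.0% and 79.0% on day 10, and 79.4% and 80.2% on day 12. The 8 cultures averaged 78.6% ± 1.04 (SD, n = 8), against 69.2% ± 2.64 in WT cortex of 0 to 2 weeks (SD, n = 13). The lowest culture, at 76.8%, lay above the highest animal, at 73.1%. The difference was 9.41 points (SE 0.820, exact two-sided permutation p = 4.91e-06, the smallest that 203490 arrangements allow, adjusted over 4 measures p = 9.83e-06). Day 12 cultures exceeded 2-week cortex by 11.9 points (79.8% ± 0.577, SD, n = 2, against 67.9% ± 2.28, SD, n = 5; SE 1.10, exact permutation p = 0.0476).

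Over the days in culture CG methylation was higher late than early. Day 12 exceeded day 4 by 1.90 points (SE 0.787, from the SD pooled within days), and the slope was 0.245 points a day (SE 0.0842, r = 0.765, exact permutation p = 0.0274, adjusted p = 0.0493). Days 7, 10 and 12 were separate from each other, whereas the 2 libraries of day 4 stood on both sides of day 7. The call rested on these few libraries. Leaving out any 1 of the 8 other than library A of day 4 ended it, with r of 0.650 to 0.762, and without that library r was 0.976 (exact permutation p = 0.00159). In cortex the CG level ran the other way in its means, at 71.3% ± 1.90 at 0 weeks (SD, n = 5), 68.1% ± 2.75 at 1 week (SD, n = 3) and 67.9% ± 2.28 at 2 weeks (SD, n = 5). The 3 ages overlapped, and the 2 directions were not tested against each other.

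**Figure D3:**
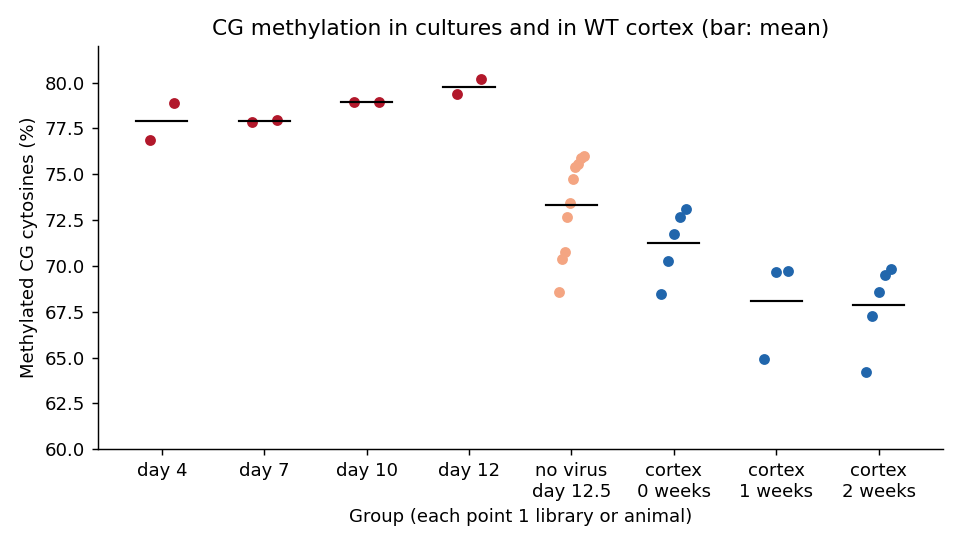
Percentage of CG cytosines called methylated (vertical axis, which does not start at 0) in each culture by day in vitro, in the no virus cultures and in WT cortex by age, where each point is 1 library or animal and the bar is the mean. All 8 cultures lie between 76.8% and 80.2%, above every no virus culture and every animal.

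Background also differed between cultures and cortex. CC averaged 0.376% ± 0.0376 in the 8 cultures (SD, n = 8) and 0.274% ± 0.0257 in the 13 animals (SD, n = 13), without overlap. That difference was 0.102 points (SE 0.0151, exact permutation p = 4.91e-06, adjusted p = 9.83e-06). Lambda averaged 0.616% ± 0.0417 in the cultures (SD, n = 8) and 0.456% ± 0.0460 in the 12 animals with a value (SD, n = 12), a difference of 0.159 points (SE 0.0198, exact permutation p = 7.94e-06, adjusted p = 1.06e-05). Both readings of background were thus higher in the cultures, and a comparison of deposited CA or CT levels with cortex carries that difference. With lambda taken off each library the CG difference was 9.30 points.

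The ratio of the CT level to the CA level fell over the days. It was 0.735 and 0.764 on day 4, 0.718 and 0.684 on day 7, 0.601 and 0.568 on day 10, and 0.491 and 0.453 on day 12, with no overlap between any 2 days. The slope was -0.0346 a day (SE 0.00407, r = -0.961, exact permutation p = 0.00119, adjusted p = 0.00804). An equal background in both levels moves such a ratio towards 1. A ratio with lambda subtracted from both levels cannot be read here, because CT lay below lambda in all 8 cultures and CA lay below it on days 4 and 7. Leaving out day 7, 10 or 12 also ended the call after adjustment, with r of -0.975 to -0.948, and leaving out day 4 did not. The ratio averaged 0.627 ± 0.117 in the cultures (SD, n = 8) and 0.723 ± 0.280 in cortex of 0 to 2 weeks (SD, n = 13), a difference of -0.0966 (SE 0.0879, exact permutation p = 0.365). Against the 2-week cortex alone, at 0.422 ± 0.0252 (SD, n = 5), the sign turned, with a difference of 0.204 (exact permutation p = 0.00389). In cortex the mean ratio was 1.03 at 0 weeks and 0.718 at 1 week, so it was lower at later times in both sources. Both differences thus depend on the days and ages pooled and do not compare cultures with cortex at a like time.

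After CC was taken off both levels, the ratio no longer fell. CT above CC divided by CA above CC was 0.184 and 0.187 on day 4, 0.201 and 0.163 on day 7, 0.207 and 0.188 on day 10, and 0.227 and 0.219 on day 12. Day 7 overlapped days 4 and 10, and day 12 lay above all of them. Pearson's r was 0.705 (exact permutation p = 0.0516, adjusted p = 0.0663), and Spearman's rho was 0.830 (exact permutation p = 0.0198, adjusted p = 0.0298). The fall of the deposited ratio and the rise in rank of the one above CC come from the same CT and CA values with a different treatment of background.

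With CC taken off, day 12 cultures held less CT for their CA than 2-week cortex, and as deposited the order was the opposite. The deposited ratio was 0.491 and 0.453 in day 12 cultures, against 0.381 to 0.449 in the 5 animals of 2 weeks, and this pair of groups was not tested. Day 12 cultures had a ratio above CC of 0.227 and 0.219, against 0.253 to 0.281 in the same animals. The difference in means was -0.0431 (SE 0.00636, exact permutation p = 0.0476, adjusted p = 0.0476), again the smallest p possible. The 10 no virus cultures of day 12.5 did not share the low ratio above CC. They had 0.260 to 0.307, within or above the range of these animals, and were not tested against them. At 1 week the 3 animals had ratios of 0.306, 0.330 and 0.378, above all 8 cultures. At 0 weeks CA above CC lay at or near 0, and the ratio ran from -7.71 to 6.75, which cannot be read. Across libraries, CT above CC increased by 0.235 points for each point of CA above CC in the cultures (SE 0.00680, n = 8) and by 0.247 points in WT cortex of 0 to 2 weeks (SE 0.00582, n = 13). These slopes are descriptions, since the same CC value is taken off both quantities and time moves both.

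**Figure D4:**
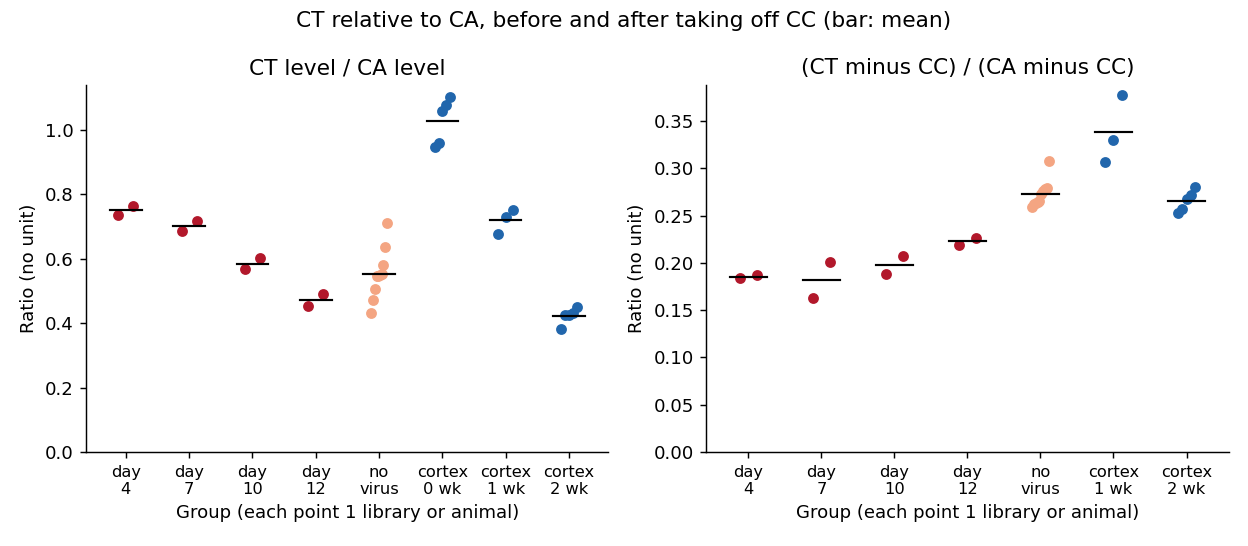
Ratio of CT to CA levels as deposited (left) and with the CC level taken off both (right), where each point is 1 library or animal and the bar is the mean; 0-week cortex is left off the right panel. The left ratio is lower on each later culture day, from 0.735 and 0.764 on day 4 to 0.491 and 0.453 on day 12, while the right one is highest on day 12.

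The no virus cultures of day 12.5 offer a second set of neurons with no vector named at nearly the same day. Since their label names no wild-type genotype, genotype and batch cannot be told apart in this comparison. Day 12 cultures had 0.777 and 0.769 points of CA above CC, inside the range of 0.241 to 1.07 points, with a median of 0.518, in the 10 no virus cultures. The difference in means was 0.228 points (0.773 ± 0.00531, SD, n = 2, against 0.545 ± 0.229, SD, n = 10; SE 0.0726, exact permutation p = 0.242). Without no virus replicate 7, the highest, the difference was 0.286 points and passed (exact permutation p = 0.0364). In CG methylation the 2 sets did not overlap, at 79.4% and 80.2% on day 12, against 68.5% to 76.0% in the no virus cultures. That difference was 6.44 points (SE 0.935, exact permutation p = 0.0152, the smallest that 66 arrangements allow, adjusted over 2 measures p = 0.0303). It missed the threshold after adjustment without no virus replicate 1 or 2, or with medians. Without day 12 library A it was 6.85 points and without library B 6.04 points, with too few arrangements left to pass. The no virus values were written with fewer decimals in 9 of 10 libraries, whereas all 8 cultures and all 13 animals had long decimals, and the part of this split in the difference was not tested.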

How the data were processed

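Bisulfite libraries were analysed from 1 deposited table that holds, per library, the fraction of cytosines called methylated at CA, CT, CC and CG sites and in lambda DNA. The fractions were deposited by the authors without counts or coverage, so depth behind each value is unknown and no coverage minimum, weight or counting interval was applied. The submitters' processing notes name BS-Seeker2, bedtools and the mm9 build, and their versions and settings are not given in the sources used here. Per the labels' protocols, DNA was converted with modified cycling and libraries were read on a MiSeq.

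Fractions were multiplied by 100 to give percent. Each cortex animal used here had a single library, so n is the number of animals in cortex and of libraries in culture. The level above CC and the ratios were computed per library. Trends were tested by Pearson's r over all 2520 distinct arrangements of days, groups by the difference in means over all arrangements, each two-sided and exact, with Benjamini-Hochberg adjustment within families of 9, 4, 3 and 2 measures and a threshold of 0.05. The SE of a step between days uses the SD pooled over days. No 2 culture libraries held equal values (tolerance 1e-07 percentage points). 2 libraries whose title and genotype label disagree entered no comparison, and 1 cortex animal of 2 weeks has no lambda value. The deep libraries of the series were not used here.

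The members, measures and tests were chosen with earlier results of these data known. No gene is named, since the table holds none. Alternatives were lambda subtracted, Spearman's rho, a logit scale, day 12.5 for the last libraries, each day and each library left out, medians, subsets of days or ages, and days permuted within the title letter. The permutation tests were tested on simulated data. Python 3.11.15, numpy 2.4.6, pandas 2.3.3, scipy 1.17.1 and matplotlib 3.10.9 were used.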

Additional observations from a re-analysis of the deposited data

Results flagged for a closer look

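Of 26 sets of 4 to 10 values examined for a value far from the rest, 4 held one. Chance gives about 1 in 20 for independent sets. These sets share libraries and hold measures derived from each other, so the count cannot be set against that share. No flagged value was from a culture of days 4 to 12, because those groups hold 2 libraries each and were not examined. In WT cortex of 2 weeks, animal WT1 had 1.15 points of CA above CC, against 0.987 to 1.02 in the other 4 animals. Its CC level was 0.231%, the lowest of the 5. Among the no virus cultures, replicate 7 had the highest CA level, at 1.38%, against 0.578% to 0.994% in the other 9, and the highest lambda level, at 0.888%, against 0.383% to 0.573%. Replicate 10 had a ratio of CT to CA above CC of 0.307, against 0.260 to 0.279 in the other 9. The part of the high lambda level in the CA level of replicate 7 was not tested.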

How the results depend on the processing

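Of 294 alternative values, 231 kept the direction and the side of the threshold, 50 fell back over it, 4 newly passed and 9 changed sign. Depth per library is unknown, and 2 libraries a day limit every statement on days. Whether the title letters pair the libraries is not known. Deviations of the 5 levels correlated above 0.1 in 3 of 6 pairs of days (-0.961 to 0.952), and every pair with day 4 was negative. Such a correlation leaves out a shift common to all 5 levels, so it cannot decide on pairing. With days permuted within the replicate block of a letter, 5 of 9 trends passed as before, with CT now among them (r = 0.869) and CG not (r = 0.773). Spearman's rho for the ratio above CC, 0.830, passed.

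With lambda subtracted, CT passed (r = 0.944), CC changed sign (0.730) and the cultures lay below cortex in CC (-0.0542 points). The CT to CA ratio then gave r of -0.545 and a difference from cortex of 1.04, neither of which can be read as a change in the ratio, since CT lies below lambda in all 8 cultures and CA on both sides of it. Against 2-week cortex only, the ratio difference was 0.204. The sign of r for CC was also positive without day 4 (0.0161) and without day 12 (0.132).

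With 6 libraries, calls were lost without day 7 (r of 0.913 at CA, 0.756 at CG, 0.923 for CA above CC, 0.901 for CT above CC, -0.975 for the ratio), without day 10 (0.936, 0.756, 0.948, 0.942 and -0.967 in that order) and without day 12 (0.829, 0.565, 0.915, 0.886 and -0.948). With 1 library left out, r spanned -0.280 to 0.256 for CC and 0.650 to 0.976 for CG. For CA it spanned 0.867 to 0.936, for CA above CC 0.890 to 0.935, for CT above CC 0.860 to 0.926 and for the ratio -0.973 to -0.950, with every call kept.

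For day 12 against 2-week cortex, leaving out 1 sample gave -0.275 to -0.233 points of CA above CC, 11.0 to 12.4 points of CG and -0.0469 to -0.0393 in the ratio above CC, with too few arrangements left to pass. For day 12 against no virus cultures it gave 0.194 to 0.286 points of CA above CC and 5.91 to 6.85 points of CG, and medians gave 5.70 points of CG. The cause of the other changes was not tested.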

Other observations

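Library A exceeded library B in CA, CT, CC and CT above CC on 4 of 4 days, in lambda, CA above CC and both ratios on 3 of 4 days, and in CG on 1 of 4 days. The mean of A minus B was 0.0879 points at CA, 0.0718 at CT, 0.0613 at CC and 0.0518 in lambda. No label says what the letters stand for.

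The 10 no virus cultures of day 12.5 had ratios of CT to CA above CC of 0.260 to 0.307, and all 8 cultures of days 4 to 12 had lower ones, of 0.163 to 0.227. CC was 0.328% to 0.441% in those 8 cultures and 0.269% to 0.358% in the no virus cultures. Across libraries, CT above CC increased by 0.254 points for each point of CA above CC in the no virus cultures (SE 0.00617, n = 10). These values were not tested against the cultures of days 4 to 12.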
